A study of Oncorhynchus mykiss with 27 samples.

Results

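The clones described here are cDNA clones whose mean signal was at least 2-fold lower in trout testis explants kept 96 h in culture without hormone than over 3 arrays of uncultured testis. For 41 of them the difference reached 2-fold on only 1 of these 3 arrays. They were selected on measured values: a deposited log2 level on at least 22 of 27 arrays, a mean over the 3 arrays of uncultured tissue (T0) at or above 6.42, which is the median of the experiment, and a mean over the 6 control arrays (Ctrl) lower by 1 or more on the log2 scale. Water and vector control rows and the 102 clones already listed as responsive to Fsh were set aside. The rule gave 131 clones out of 9024 on the membrane, 8244 of which had a value on enough arrays and 4021 of which also lay outside the Fsh list and reached the T0 minimum. By the same limits 99 clones were at least 2-fold higher in Ctrl than in T0. The difference between Ctrl and T0 was thus fixed by the choice of the clones. It is given as a description with no test, as are all comparisons with Ctrl or T0, whose arrays were used in the choice.

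Testis fragments of rainbow trout (*Oncorhynchus mykiss*), from an all-male population in early spermatogenesis, were pooled, mixed and shared out over wells. They were cultured for 96 h at 12 degrees without addition (Ctrl), with purified Fsh at 500 ng/mL (Fsh; trout by the labels, salmonid pituitary by the methods), with trilostane at 10 µg/mL (Tri), or with trilostane followed by Fsh (Fsh+Tri), with 6 wells and 6 arrays each, and T0 was whole testis that was not cultured (3 arrays). Since the wells of a treatment held tissue of 1 pool, the p-values below measure the spread between wells and arrays of that pool and not between animals. Radiolabelled cDNA from total RNA was hybridized to nylon membranes, and the level of a clone is the authors' quantile normalized log2 signal. It can be compared between arrays for 1 clone but not between clones. In whole tissue, fewer cells of a type and less RNA per cell cannot be told apart.

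Trout testis at these stages holds Sertoli cells, which carry the Fsh receptor and nurse the germ cells, steroidogenic Leydig cells, and mostly spermatogonia. Fsh acts on Sertoli cells and, in fish, also promotes androgen production. Trilostane inhibits 3 beta-hydroxysteroid dehydrogenase, an enzyme needed to make androgens and progestins. A fragment removed from the fish has no blood supply and no pituitary hormones, and Fsh returns only 1 of these signals. The 131 clones are given by clone name, as gene names and sequences were not used here for them. The prefix of the name is taken to be that of the cDNA library. Of the clones already listed as responsive to Fsh, 11 met the same limits on Ctrl and T0. Their annotation includes anti-Müllerian hormone, a Sertoli cell hormone, DMRT1, a transcription factor of testis differentiation, and HSD3B2, the enzyme that trilostane inhibits. Also annotated are NR2F2, an orphan nuclear receptor, ODC1, which makes putrescine, and the transcription factors CEBPD and FOSL2. The rest are the proteasome subunit PSMD1, smoothelin-b and uncharacterized or hypothetical proteins. Claudin 11a and inhibin, also listed as responsive to Fsh and as somatic, were not among the 11. No loss of a cell type is read from these names. These 11 are not among the clones described.

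Some arrays stood apart. T0 replicate 1 was read with a newer version of the image software than the other T0 arrays, as were Ctrl replicate 3, Fsh replicate 3 and Tri replicates 1 and 3. Over 8244 clones it correlated with T0 replicates 2 and 3 at r = 0.884 and 0.900, which correlated with each other at r = 0.958 (across clones, which are not independent). The labels put T0 replicates 1 and 2 in maturity stage III and T0 replicate 3, like all Ctrl arrays, in stage I-II, so that stage, software and culture are partly mixed in the choice of the clones, and their part in it was not tested. The methods instead describe wells that held fragments of both stages. The mean level of the 131 clones was 6.57 on Ctrl replicate 4 and 6.93 to 7.0 on the other Ctrl arrays. The reference gene *rps15*, which encodes a ribosomal protein, stood at 11.0 in Ctrl and 11.1 in T0, a difference of -0.04.

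T0 means of the clones ran from 6.48 to 12.7 with a median of 8.03, and their Ctrl means from 5.07 to 11.0 with a median of 6.59. The Ctrl mean of 60 clones lay below the median of the experiment, and that of 26 below its lower quartile of 5.80. The median of Ctrl minus T0 was -1.31 (quartiles -1.67 and -1.10), a 2.48-fold lower level, against -0.004 over the 4860 clones tested. The loss was mostly moderate: 82 clones lay above -1.5 and 15 at -2 or below. At the limit, *tcba0024.o.12*, *tcay0024.i.23*, *1rt53p19_b_h10*, *1rt152j09_b_e05* and *tcav0004.o.22* were just inside, at -1.01 to -1.0. Of these, *tcay0024.i.23* and *1rt152j09_b_e05* were at least 1 above their Ctrl mean on T0 replicate 1 only. Just outside lay *1rt71b07_b_a04*, *1rt133m20_c_g10*, *tcba0023.c.02*, *tcam0002.e.05* and *1rt93c13_a_b07*, at -1.0 to -0.97.

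**Figure D1:**
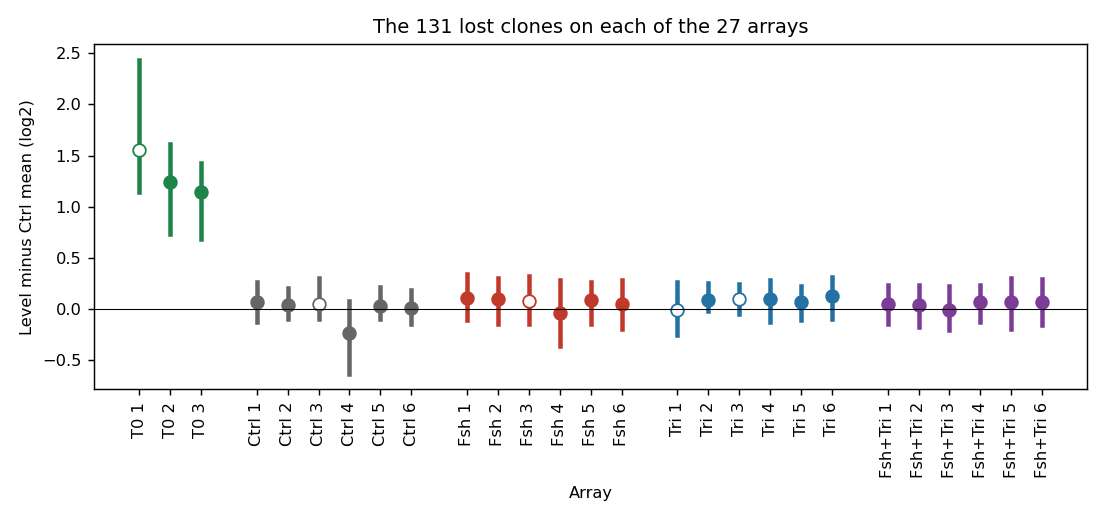
Level of the 131 clones minus their Ctrl mean (log2) on each of the 27 arrays; the circle is the median over clones, the bar spans the quartiles, and open circles mark arrays read with the newer image software. The 3 T0 medians lie at 1.15 to 1.55, and the cultured arrays at -0.23 (Ctrl replicate 4) to 0.12 (Tri replicate 6).

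The greatest loss was that of *tcbk0040.p.09*. It stood at 10.87, 11.18 and 11.21 on the 3 T0 arrays and at 6.93, 7.38 and 8.01 (lowest, median and highest) in Ctrl. The T0 arrays were close to each other and far above every Ctrl array, and the Ctrl mean was 12.9-fold lower. *tcbk0007.j.13* was next, with 9.05, 9.09 and 8.42 in T0 and 5.26, 6.01 and 6.40 in Ctrl (7.81-fold). *tcbi0009.n.05* had 10.18, 10.19 and 10.33 in T0 and 7.65, 7.82 and 8.22 in Ctrl (5.10-fold). For each of these clones all T0 arrays lay above all Ctrl arrays. The choice on T0 and Ctrl favours such a gap, here and in the clones below. Its share over all clones was not taken.

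*tcad0009.g.03* had 7.85, 8.43 and 8.02 in T0 and 5.35, 5.83 and 6.19 in Ctrl. *tcay0019.b.05* had 8.42, 8.01 and 7.98 in T0 and 5.53, 5.94 and 6.31 in Ctrl. *tcbk0026.d.10* had 8.28, 8.18 and 8.22 in T0 and 5.05, 6.18 and 6.36 in Ctrl, where the lowest value is that of Ctrl replicate 4. The groups were again apart, and these losses were 4.91-, 4.65- and 4.64-fold. *1rt66c18_c_b09* (7.67, 8.51 and 7.81 in T0; 5.50, 5.76 and 6.26 in Ctrl) and *tcaa0002.m.12* (8.81, 9.03 and 8.55 in T0; 6.30, 6.55 and 7.19 in Ctrl) had losses of 4.52- and 4.50-fold, with no overlap.

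The other 2 of the 10 greatest losses rested on 1 array. *tcbk0018.m.13* stood at 12.79 on T0 replicate 1 but at 5.08 and 4.96 on T0 replicates 2 and 3, within its Ctrl range of 4.83 to 5.81. *tcbk0005.f.15* stood at 12.54, 5.56 and 5.51 in T0 and at 5.36 to 5.93 in Ctrl. Both clones were thus no higher in T0 replicates 2 and 3 than in culture.

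**Figure D2:**
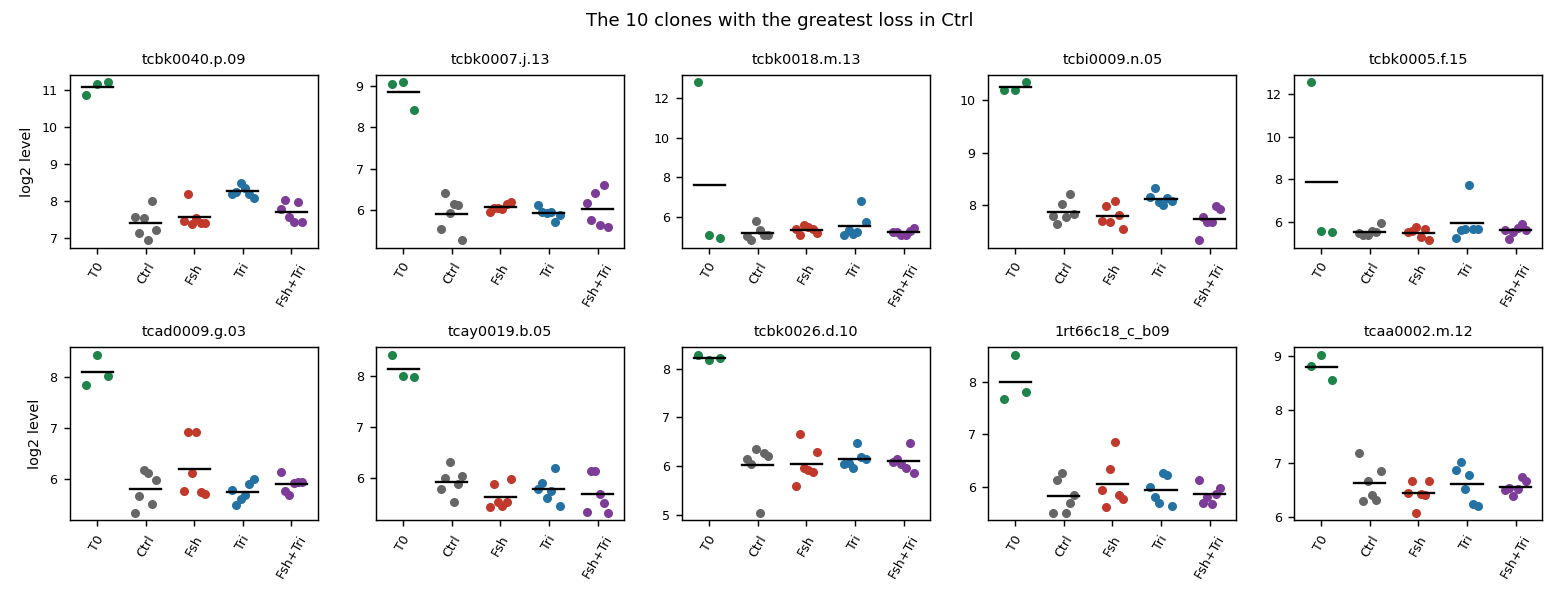
Log2 level (y axis, its range set per clone) of the 10 clones with the greatest loss, on each array of T0, Ctrl, Fsh, Tri and Fsh+Tri; points are arrays and bars the group means. In 8 clones the 3 T0 arrays lie together above Ctrl, whereas *tcbk0018.m.13* and *tcbk0005.f.15* are high on T0 replicate 1 alone, at 12.79 and 12.54. The 10 clones were picked on T0 and Ctrl arrays, which favours a gap between them.

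The same division ran through the whole set. On the 3 T0 arrays taken singly, 52 clones were at least 1 above their Ctrl mean in all 3, 38 in exactly 2 and 41 in exactly 1, of which 35 were high in T0 replicate 1 only. In 27 clones T0 replicate 1 was over 2 above the mean of the other T0 arrays, and this held for 1.11% of the clones tested. The rule used the mean of these T0 arrays, which favours such clones. Nothing is read from this share. Another example, named after its values were seen, is *tcba0027.m.12*, with 12.57, 4.39 and 4.57 in T0 and 4.56 to 5.67 in Ctrl. The 3 clones high in T0 replicate 3 only include *tcbi0011.p.19* (5.25, 5.54 and 10.81 in T0; 5.2 to 5.57 in Ctrl), also named after its values were seen. Without T0 replicate 1 the rule gave 118 clones, of which 91 were among the 131 (69.5% of the set and 77.1% of the other), and 40 of the 131 no longer met it. The T0 array labelled stage I-II, used alone, gave 114 clones, 81 of them shared. Arrays read with the older software gave 131 clones, 96 of them shared.

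The 52 clones high in every T0 array had median T0 levels of 8.82, 8.65 and 8.64 and a median Ctrl mean of 7.04. Their median of Ctrl minus T0 was -1.62, on the same T0 and Ctrl arrays by which they were grouped. In the 35 clones high in T0 replicate 1 only, the median level was 10.2 on that array and 6.04 and 5.98 on T0 replicates 2 and 3, close to their median Ctrl mean of 5.85. The latter values lay below the median of the experiment.

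**Figure D3:**
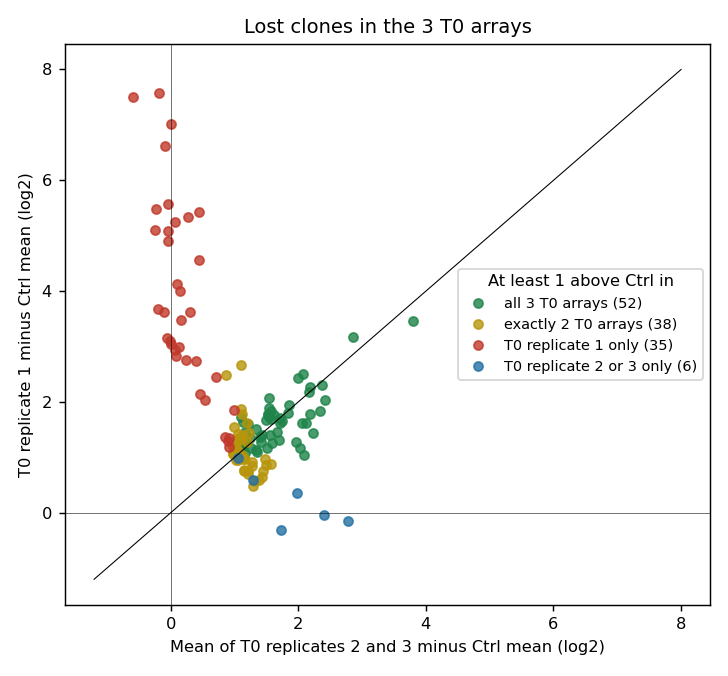
T0 replicate 1 minus the Ctrl mean (y axis, log2) against the mean of T0 replicates 2 and 3 minus the Ctrl mean (x axis, log2) for the 131 clones, coloured by the T0 arrays in which a clone was at least 1 above Ctrl; the diagonal marks equal values. The 52 clones high in all 3 arrays lie near the diagonal, and many of the 35 high in T0 replicate 1 only rise along the y axis near 0 on the x axis.

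The level was also low in the other cultured wells. The median difference from T0 was -1.33, -1.21 and -1.32 for Fsh, Tri and Fsh+Tri, against -0.05, -0.03 and -0.02 over all clones tested. Every one of the 131 clones had a mean below T0 in all 3 of these treatments, which was so for 1989 of the 4021 clones of the same pool. The rule chose clones with a T0 mean at least 1 above Ctrl, which favours this. Nothing is read from the count. Without T0 replicate 1 the median differences from T0 were -1.11, -1.12 and -1.14. On arrays labelled stage I-II alone, where T0 is 1 array, they were -1.03, -1.01 and -1.02. In the 52 clones high in each T0 array they were -1.51, -1.45 and -1.52. This class was picked for T0 arrays well above Ctrl, which favours lower values.

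A level at least 2-fold below T0 was found for 131 clones in Ctrl, as the rule requires (3.26% of the 4021 clones). It was found for 100, 104 and 108 of the 131 in Fsh, Tri and Fsh+Tri, whereas 3.46%, 3.31% and 3.53% of the 4021 clones were as low. These shares use the T0 arrays of the rule, and nothing is read from them. In 86 clones the level was at least 2-fold below T0 in all 4 treatments. The count over the 4021 clones was 86 as well, since the rule itself sets this limit in Ctrl. In 75 clones each of the 24 cultured arrays lay below each of the 3 T0 arrays, which was so for 4.4% of the 4021 clones. Of the 75, 47 were among the 52 clones high in every T0 array. The rule and the class of 52 were both set on T0 and Ctrl arrays, which favours such a gap. Nothing is read from it.

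**Figure D4:**
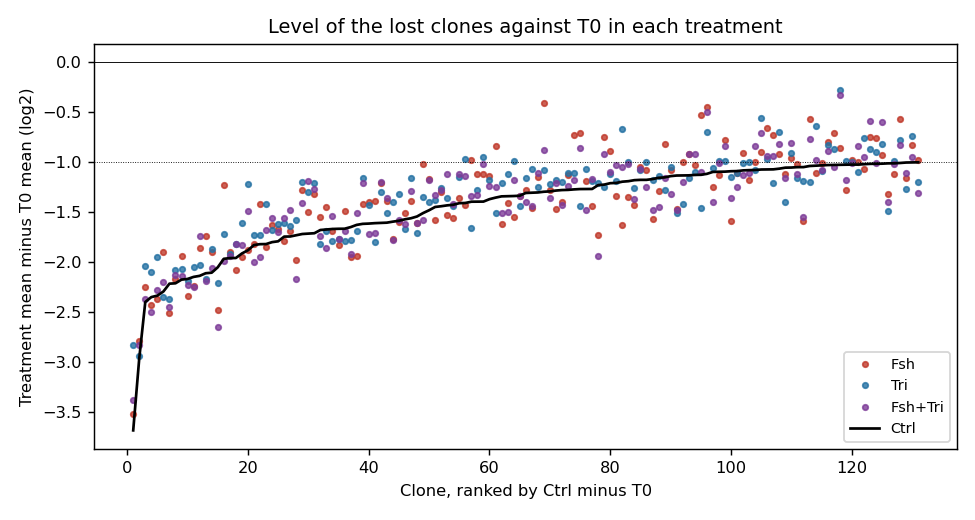
Treatment mean minus T0 mean (y axis, log2) for the 131 clones ranked by Ctrl minus T0 (x axis, black line), with a point for Fsh, Tri and Fsh+Tri each and a dotted line at -1. All points lie below 0, and the point nearest to T0 is that of *1rt121g11_a_d06* with Tri, at -0.28.

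Against Ctrl, whose arrays the rule used, clones lay on both sides with each addition. The differences ran from -0.54 to 0.89 with Fsh, -0.48 to 0.86 with Tri and -0.71 to 0.69 with Fsh+Tri. The median difference was 0.07, 0.10 and 0.05 for Fsh, Tri and Fsh+Tri, against -0.04, -0.02 and -0.01 over the clones tested. Of the 131 clones 79, 91 and 78 lay above Ctrl (60.3%, 69.5% and 59.5%), against 43.1%, 46.4% and 48.1% of the clones tested. The choice of clones with a low Ctrl mean favours levels above Ctrl, so nothing is read from these shares. Ctrl replicate 4, on which the clones were low, moved these values. Without it the medians were 0.01, 0.06 and 0.03. On single arrays the median over the 131 clones varied with an SD of 0.11 in Ctrl and of 0.05, 0.05 and 0.03 in Fsh, Tri and Fsh+Tri. A level at least 0.5 above Ctrl was found for 7, 7 and 3 clones in Fsh, Tri and Fsh+Tri, while 3.44%, 1.89% and 3.17% of the clones tested were as high. A level at least 0.5 below Ctrl was found for 1, 0 and 2 of the 131 and for 2.08%, 1.21% and 1.79% of the clones tested. The clones tested include clones of the list responsive to Fsh, which the 131 leave out, so these shares are not of like sets.

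Expressed as a share of the loss, the median clone regained 4.5%, 6.1% and 3.9% in Fsh, Tri and Fsh+Tri, where 100% would be the T0 mean. In the 52 clones high in every T0 array, for which this denominator does not rest on 1 array, the medians were 6.9%, 6.1% and 3.9%. The clones that regained at least 50% in any treatment were *tcbk0024.h.21*, *tcak0001.o.11*, *1rt30j21_b_e11* and *1rt121g11_a_d06*, and 0 did so in all 3. No such share was taken over other clones. Because the clones were chosen for a low Ctrl mean, the choice itself favours levels above Ctrl in the other treatments. The word regained names this ratio only, and no recovery is read from it. *tcbk0024.h.21* had 9.65, 9.87 and 9.03 in T0. It had 7.5, 8.42 and 8.65 (lowest, median, highest) in Ctrl and 8.40, 8.87 and 10.9 with Fsh. The highest value is that of Fsh replicate 4, above all T0 arrays, and the lowest Fsh array lay within the Ctrl range.

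*tcak0001.o.11* had 9.78, 10.68 and 10.48 in T0. In Ctrl it had 8.5, 9.43 and 9.62, with Fsh 9.50, 9.90 and 10.1, with Tri 9.09, 9.63 and 10.0, and with Fsh+Tri 9.53, 9.85 and 10.1. Its Fsh and Fsh+Tri means were 0.67 and 0.62 above Ctrl, and their lowest arrays lay within the Ctrl range. *tcay0018.f.10* had 11.80, 12.76 and 12.43 in T0 and 8.67, 10.63 and 11.67 in Ctrl. It had 11.0, 11.1 and 11.3 with Fsh and 9.79, 10.4 and 10.7 with Fsh+Tri. Its Fsh mean was 0.74 above Ctrl, and all Fsh arrays lay within its wide Ctrl range. *1rt30j21_b_e11* (0.60) and *1rt36k13_a_f07* (0.56) complete the 5 highest with Fsh.

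Some clones stood further below T0 with hormone than without. *tcam0001.o.09* had 10.03, 10.37 and 9.88 in T0 and 7.15, 9.13 and 9.45 in Ctrl. It had 7.97, 8.44 and 8.72 with Fsh and 7.83, 8.11 and 8.55 with Fsh+Tri. Apart from Ctrl replicate 4, the lowest array, Ctrl lay above both. *tcac0001.b.02* and *tcay0027.n.15* were likewise among the 5 lowest against Ctrl both with Fsh (-0.54 and -0.43) and with Fsh+Tri (-0.50 and -0.60), as was *tcam0001.o.09* (-0.50 and -0.71). The remaining lowest clones were *tcbk0039.n.08* (-0.44) and *tcac0005.g.18* (-0.49) with Fsh, and *tcaa0001.j.19* (-0.44) and *tcbk0050.e.09* (-0.38) with Fsh+Tri. With Tri the lowest differences were smaller, from -0.48 for *tcbk0050.e.09* to -0.28 for *1rt35b10_d_a05*. Between them were *tcay0041.b.04* at -0.37, *tcbi0011.g.18* at -0.35 and *1rt30j21_b_e11* at -0.33. Of the clones named here, *tcbk0050.e.09* and *tcay0041.b.04* were high on T0 replicate 1 only, and *tcbi0011.g.18* on T0 replicate 2 or 3 only.

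The clones highest with Tri against Ctrl were *tcbk0040.p.09* (0.86), *1rt121g11_a_d06* (0.75), *1rt93d06_d_b03* (0.67), *tcbk0039.n.08* (0.53) and *1rt94m04_c_g02* (0.52). With Fsh+Tri they were *1rt121g11_a_d06* (0.69), *tcak0001.o.11* (0.62), *tcal0001.o.16* (0.53), *tcad0009.a.22* (0.45) and *tcba0011.f.15* (0.43). The last was high on T0 replicate 1 only. For *1rt93d06_d_b03*, *1rt94m04_c_g02*, *tcad0009.a.22* and *tcbk0039.n.08*, Ctrl replicate 4 was the lowest Ctrl array by a wide gap, at 6.57 against 8.92, 8.11 against 9.70, 7.21 against 8.70 and 6.40 against 8.37 for the next.

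Which clones differed among the 3 treatments that the rule did not use was tested with limma over 4860 clones, on the 24 cultured arrays, with Benjamini-Hochberg adjustment. The clones already listed as responsive to Fsh were not taken out of the 4860, whereas the 131 leave them out by rule. Shares over all clones tested, here and below, thus include clones of a kind that the 131 cannot hold. Fsh and Tri wells differed both in Fsh and in trilostane, so a difference between them cannot be put to either. Between Fsh and Tri, 6 of the 131 clones were higher with Fsh and 3 were lower at an adjusted p of 0.05 or less (4.58% and 2.29%), while 1.85% and 1.73% of all clones tested were called higher and lower. All 9 were among the 81 clones that reached the median of the experiment in a cultured group; the other 50 passed the filter through T0 alone. The spread in this fit includes the Ctrl arrays, which the rule used. A fit on the 18 arrays of Fsh, Tri and Fsh+Tri called 7 clones higher and 6 lower, beside 2.47% and 2.45% of all clones tested. These were the 9, *tcay0018.f.10* (0.49) as higher, and *tcam0001.o.09* (-0.52), *tcbk0004.d.07* (-0.56) and *1rt155f22_d_c11* (-0.44) as lower. The last 2 were named after their values were seen, and *1rt155f22_d_c11* was high on T0 replicate 1 only. Without Ctrl replicate 4 the counts were 6 and 6, without Fsh replicate 3 they were 1 and 2, and nothing is read from how the 131 compare with all clones. The median of Fsh minus Tri was -0.05 over the 131 and -0.01 over all clones tested. Of the 118 clones chosen without T0 replicate 1, 6 were called higher and 3 lower as well.

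Of the clones higher with Fsh than with Tri, *1rt30j21_b_e11* had the greatest difference. It had 8.01, 8.29 and 8.46 (lowest, median, highest) with Fsh and 6.93, 7.34 and 7.70 with Tri. All 6 Fsh arrays lay above all Tri arrays, and the difference was 0.93 ± 0.20 (SE, n = 6 per group; limma adjusted p = 0.00427). With Fsh+Tri it had 7.36, 7.53 and 8.12, its range overlapping both, and in T0 8.83, 8.70 and 8.80. It regained 52.9% of its loss with Fsh whereas its value with Tri was -29.6%.

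*1rt36k13_a_f07* had 8.52, 8.75 and 9.14 with Fsh and 7.63, 7.98 and 8.48 with Tri, with no overlap (0.73 ± 0.20, limma adjusted p = 0.0340). *1rt65g08_c_d04* had 8.32, 8.89 and 9.16 with Fsh and 7.71, 8.19 and 8.67 with Tri, and 4 of its 6 Fsh arrays lay above all Tri arrays (0.64 ± 0.16, limma adjusted p = 0.0222). Over the 18 arrays with an addition the levels of this pair correlated at r = 0.82, as a description. Both clones were picked as higher with Fsh than with Tri on these arrays, which favours a high r. *1rt94c01_a_b01* had 8.35, 8.66 and 9.21 with Fsh and 7.71, 7.95 and 8.45 with Tri (0.67 ± 0.17, limma adjusted p = 0.0219). Its groups overlapped in 1 Fsh array.

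*tcad0008.o.20* had 6.35, 6.53 and 7.14 with Fsh and 5.96, 6.11 and 6.41 with Tri, with 1 Fsh array overlapping (0.50 ± 0.14, limma adjusted p = 0.0381). *tcay0011.l.24* had 6.70, 6.85 and 7.10 with Fsh and 6.13, 6.36 and 6.66 with Tri, with no overlap (0.49 ± 0.14, limma adjusted p = 0.0423). Both lay near the median of the experiment with Tri. For all 6 clones the Fsh+Tri mean stood between those of Tri and Fsh, as the means of 7.68, 8.62, 8.61, 8.29, 6.47 and 6.65 in the order above show. The 6 clones were picked for a difference between Fsh and Tri, which favours a mean in between. Nothing is read from this.

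The clones lower with Fsh than with Tri include *tcbk0040.p.09*, the clone with the greatest loss. It had 7.37, 7.44 and 8.20 with Fsh and 8.07, 8.22 and 8.49 with Tri, and 5 of 6 Fsh arrays lay below all Tri arrays (-0.69 ± 0.17, limma adjusted p = 0.0144). With Fsh+Tri it had 7.42, 7.68 and 8.04. Even with Tri its difference from T0 was -2.83.

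*tcbk0039.n.08* had 7.71, 7.80 and 7.97 with Fsh and 8.47, 8.67 and 9.21 with Tri, with no overlap (-0.97 ± 0.25, limma adjusted p = 0.0248). With Fsh+Tri it had 8.27, 8.41 and 8.49, again apart from Fsh. *1rt121g11_a_d06* had 7.39, 7.59 and 7.68 with Fsh and 7.89, 8.14 and 8.38 with Tri, with no overlap (-0.58 ± 0.16, limma adjusted p = 0.0313). With Fsh+Tri it had 7.92, 8.0 and 8.34, close to its T0 values of 8.16, 8.65 and 8.45. It regained 73.2% of its loss with Tri and 67.7% with Fsh+Tri, but 16.8% with Fsh alone. Over the 18 arrays the levels of *tcbk0039.n.08* and *1rt121g11_a_d06* correlated at r = 0.81, as a description. Both were picked as lower with Fsh than with Tri on these arrays, which favours a high r.

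The calls for *1rt30j21_b_e11* and *tcbk0040.p.09* held in each of 34 alternatives. Each of the other 7 was lost when 1 array was left out, with a highest limma adjusted p of 0.0749 for *1rt94c01_a_b01* (without Fsh 3, Tri 1 or Tri 4), 0.0705 for *1rt65g08_c_d04* (Fsh 3, Fsh 5, Tri 1 or Tri 5) and 0.0711 for *tcbk0039.n.08* (Tri 2 or Tri 3). It was 0.0817 for *1rt121g11_a_d06* (Fsh 3, 5 or 6, or Tri 1, 2, 3 or 5), 0.0917 for *1rt36k13_a_f07* (Fsh 3, 5 or 6, or Tri 1, 3, 5 or 6), 0.121 for *tcad0008.o.20* (Fsh 3 or 6, or Tri 2, 4, 5 or 6) and 0.113 for *tcay0011.l.24* (any Fsh array, Tri 1, 2, 4 or 5, or Fsh+Tri 1 or 5). With the image software as a covariate the calls of *1rt36k13_a_f07* (adjusted p = 0.0517) and *tcay0011.l.24* (0.0583) were lost, with stage as a covariate that of *tcad0008.o.20* (0.0516). With no filter on the mean those of *1rt121g11_a_d06*, *1rt36k13_a_f07*, *tcad0008.o.20* and *tcay0011.l.24* were lost. These losses are from fits that included Ctrl arrays. In the fit on the 18 arrays without Ctrl all 9 clones were called. The limma adjusted p there was 2.65e-05 for *tcbk0039.n.08*, 0.000438 for *1rt30j21_b_e11*, 0.00222 for *1rt121g11_a_d06* and 0.00543 for *tcbk0040.p.09*. For the rest it was 0.0134 to 0.0375. Single arrays were not left out of that fit.

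**Figure D5:**
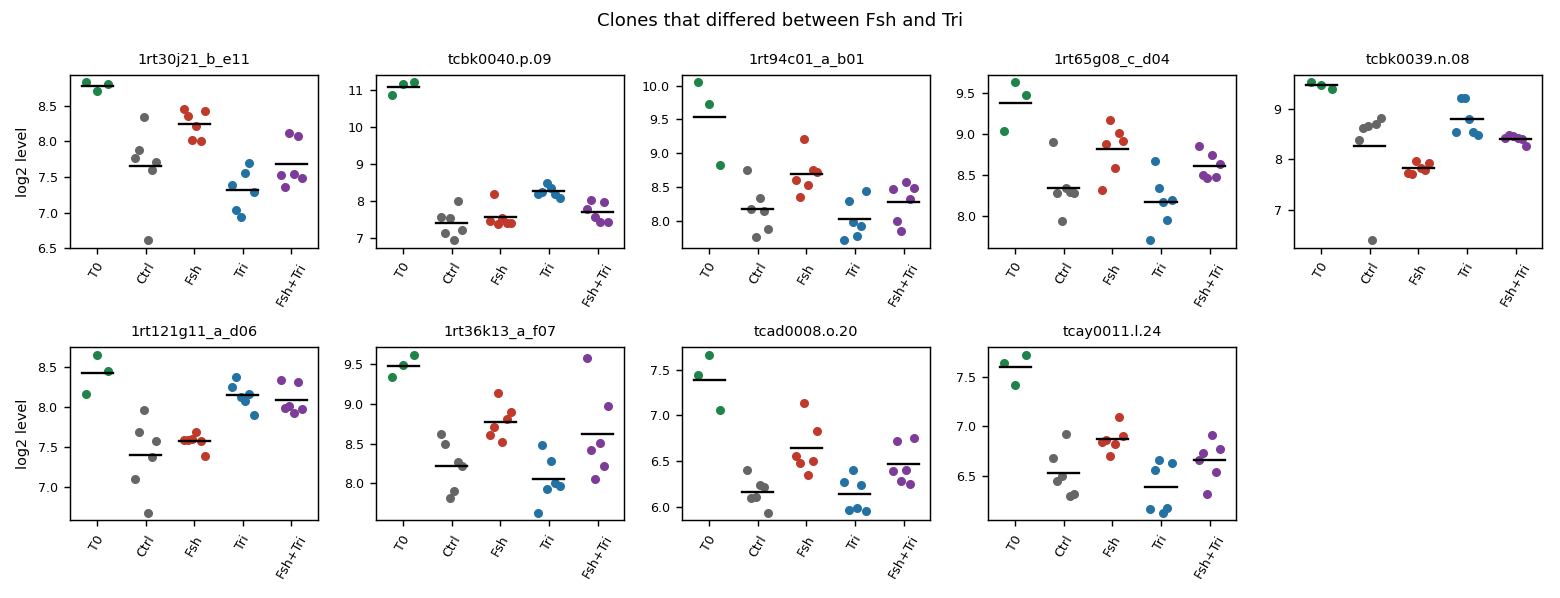
Log2 level (y axis, its range set per clone) of the 9 clones that differed between Fsh and Tri, on each array of T0, Ctrl, Fsh, Tri and Fsh+Tri; points are arrays and bars the group means. In 5 clones, among them *1rt30j21_b_e11* (Fsh 8.01 to 8.46, Tri 6.93 to 7.70), the Fsh and Tri arrays do not overlap. The 9 clones were picked on these same arrays, which favours a lack of overlap, and its share over all clones tested was not taken.

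Whether Fsh changed the clones where trilostane was present was asked by Fsh+Tri minus Tri. Counts over the 131, here and in the contrasts below, include the 50 clones that passed the filter through T0 alone. They were not taken over the other 81, and nothing is read from their shares beside all clones. At an adjusted p of 0.05 or less limma called 0 of the 131 clones (0.329% of all clones tested in either direction), and at an unadjusted p under 0.05 it gave 10 of 131 (10.9% of all). The lowest p-values were those of *tcbk0040.p.09* (-0.55 ± 0.17, limma adjusted p = 0.166), *tcbi0009.n.05* (-0.39 ± 0.13, 0.256) and *tcam0001.o.09* (-0.73 ± 0.25, 0.277) among lower clones. Among higher ones they were those of *1rt36k13_a_f07* (0.58 ± 0.20, 0.283), *1rt65g08_c_d04* (0.44 ± 0.16, 0.332) and *tcad0008.o.20* (0.33 ± 0.14, 0.398). The fit on the 18 arrays of the 3 treatments called 2 clones lower, *tcam0001.o.09* (limma adjusted p = 0.0118) and *tcaa0001.j.19* (-0.59, 0.0182), beside 0.165% of all clones tested.

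Whether trilostane changed them in explants given Fsh was asked by Fsh+Tri minus Fsh. limma called 0 of 131 (1.34% of all clones tested), and at an unadjusted p under 0.05 it gave 11 (9.24% of all). The lowest p-values were those of *1rt121g11_a_d06* (0.52 ± 0.16, limma adjusted p = 0.110), *tcbk0018.n.07* (0.42 ± 0.15, 0.272) and *tcac0006.o.16* (0.33 ± 0.13, 0.321) among higher clones. Among lower ones they were those of *tcad0007.d.07* (-0.45 ± 0.13, 0.115), *1rt30j21_b_e11* (-0.56 ± 0.20, 0.248) and *tcba0019.m.05* (-0.40 ± 0.15, 0.303). Of these, *tcad0007.d.07* and *tcba0019.m.05* passed the filter through T0 alone. High on T0 replicate 1 only were *tcbk0018.n.07*, *tcac0006.o.16* and *tcba0019.m.05*. The fit on the 18 arrays called 2 clones higher, *1rt121g11_a_d06* (limma adjusted p = 0.00936) and *tcbk0039.n.08* (0.59, 0.0138), beside 1.26% of all clones tested. It called 2 lower, *tcay0018.f.10* (-0.75, 0.00115) and *tcad0007.n.03* (-0.52, 0.0262, named after its values were seen), beside 0.679% of all.

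The labelled stage was tested on the 18 arrays with an addition, since it moves with the contrast that chose the clones. Between stage III and stage I-II limma called 0 of 131 clones and 0% of all 4860, and at an unadjusted p under 0.05 it gave 14 of 131 (11.5% of all). The median difference over the 131 was -0.04. The lowest p-values were those of *tcbk0027.k.23* (-0.35 ± 0.11, limma adjusted p = 0.249), *1rt69f09_b_c05* (-0.32 ± 0.11, 0.266) and *tcac0002.o.13* (-0.28 ± 0.09, 0.266) on the lower side and *tcay0018.f.10* (0.27 ± 0.10, 0.300), *tcay0010.i.16* (0.35 ± 0.13, 0.305) and *tcav0004.o.22* (0.29 ± 0.13, 0.397) on the higher side. Of these, *tcay0010.i.16* passed the filter through T0 alone.

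The clones came from many libraries by the prefix of their name. The largest groups were 48 of 2899 clones of the prefix 1rt (1.66%), 22 of 1860 of tcbk (1.18%) and 17 of 1404 of tcay (1.21%). The prefix tcal gave 4 of its 8 clones, and these were described after their values had been seen. In *tcal0001.o.16* the T0 arrays stood at 10.51, 10.98 and 10.21 and Ctrl at 7.79, 8.92 and 9.59, in *tcal0001.i.08* at 10.30, 10.34 and 10.01 against 7.66, 8.62 and 9.32, and in *tcal0001.k.08* at 10.21, 10.55 and 9.93 against 7.40, 8.99 and 9.40. *tcal0001.g.09* had 9.77, 9.89 and 9.25 in T0 and 8.19, 8.44 and 8.67 in Ctrl. None of these overlapped between T0 and Ctrl. The clones were chosen on these arrays, which favours a lack of overlap, and its share over all clones was not taken. Over the 18 arrays with an addition the first 3 correlated with each other at r = 0.89 to 0.91. Whether they are copies of 1 transcript was not tested.

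Of the 131 clones, 1 has a name that occurs on the membrane with and without the suffix _1. The meaning of this suffix is not given in the sources used here, and names of other clones were not searched. *tcbk0036.d.21_1*, one of the 131, differed by -1.54 between Ctrl and T0, and its T0 value was high on replicate 1 only (10.73, against 5.29 and 5.47). The row *tcbk0036.d.21* stood at 9.20 in Ctrl and 7.56 in T0, a difference of 1.63. The highest correlation between clones of the set, r = 0.93 over the 18 arrays, joined *tcba0027.m.12* and *tcay0027.m.22*. Their T0 values were unlike (12.57, 4.39 and 4.57 against 6.75, 6.52 and 6.62). This r was picked as the highest of all pairs, and pairs of other clones were not examined. *tcba0027.m.12* had low means of 5.44, 5.00 and 4.98 in Fsh, Tri and Fsh+Tri, below the lower quartile of the experiment. Its Fsh arrays ran from 4.74 to 6.67. The Ctrl mean of *tcay0027.m.22*, at least 1 below its T0 mean by the rule, was also below that quartile. Whether a few arrays carry this r was not tested.

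Cell type markers could be looked up only among the clones listed as responsive to Fsh, whose annotation gives a testicular expression profile. That list was chosen on these cultured samples. Of its 48 somatic clones, 23 were lower in Ctrl than in T0 and 7 by 1 or more, with a median difference of 0.03, and their mean level ran from 7.32 to 8.0 over Ctrl arrays and from 7.65 to 7.76 over T0 arrays. Of 5 clones of A- or B-spermatogonia 2 were lower and 1 by 1 or more, with a median of 0.37 and a range from -1.48 to 1.17 (mean level 6.92 to 7.30 in Ctrl, 6.90 to 7.11 in T0). Of 6 meiotic and post-meiotic clones 2 were lower and 0 by 1 or more, with a median of 0.48 and a range from -0.67 to 1.19 (mean level 7.86 to 8.33 in Ctrl, 7.54 to 7.83 in T0). Members of each list went both ways, so that these mean levels say little of cell composition. The part of cell composition in the loss of the 131 clones was not tested.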

How the data were processed

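Total RNA of explants and of T0 testis had been labelled with 33P and hybridized to nylon membranes of cDNA clones. Spot intensity from the image software was deposited by the authors for each array, named by membrane position and with no clone name. It was used here only for the software version and the brightness of each array (medians of 49 to 138.5). The authors' deposited log2 values are this signal divided by the signal of an oligonucleotide to the vector and rescaled by the spot's median vector signal, brought to log2 and quantile normalized. All 27 arrays had the same median, so a shift of all clones at once cannot be seen. These log2 values were the input. Each array held 8310 to 9133 values, and precision is limited by the number of arrays. Columns of unused samples number 0.

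Groups came from the sample labels. The 131 clones and the lists were chosen with earlier results of these data known. Clones tested (4860) had at least 22 of 27 values and reached the experiment's median as a mean of 1 or more of the 5 groups. Clones already listed as responsive to Fsh were not taken out of them. All 131 were tested, 81 of them through a cultured group and 50 through T0 alone. A mean per treatment was fitted over the 24 cultured arrays with limma 3.58.1 in R 4.3.3 (lmFit, eBayes), and the stage term over the 18 arrays of Fsh, Tri and Fsh+Tri with the treatment in the model. p-values were adjusted by Benjamini-Hochberg over all 4860 clones with a threshold of 0.05. The procedure was tested on simulated data. Summaries and figures were made in Python 3.11.15 with pandas 2.3.3 and matplotlib 3.10.9. The percentage of loss regained is the treatment mean minus the Ctrl mean over the T0 mean minus the Ctrl mean.

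The text names the 10 clones with the lowest Ctrl minus T0 and the 5 nearest to the limit on each side, the clones called in each contrast (where none passed, the 3 with the lowest p in each direction), the 5 highest and 5 lowest against Ctrl in each treatment, and *rps15*. Of the gene and marker lists, none could be matched to the 131 clones by name, so that no count is given for ribosomal, oxidative phosphorylation, cell cycle, stress or steroid synthesis genes. Alternatives covered the arrays in the fit, filters, covariates for stage and software, array weights, a replicate block, renormalization, and leaving out each array.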

Additional observations from a re-analysis of the deposited data

Results flagged for a closer look

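In groups of 6 arrays, 196 groups of values were examined for 1 array far from the rest, and 18 were flagged. Chance flags about 1 in 20 of groups that were not selected. The groups here were those of clones picked on these same arrays, and a low Ctrl array favours the choice. That rate is thus no measure here, and nothing is read from the number flagged. Of the 18 flags, 10 were Ctrl replicate 4. The mean level of the 131 clones was 6.57 there, with the next Ctrl array at 6.93. On the same array *tcbk0026.d.10* stood at 5.05, *tcbk0039.n.08* at 6.40, *tcam0001.o.09* at 7.15, *tcac0001.b.02* at 8.83, *tcac0005.g.18* at 7.10, *1rt94m04_c_g02* at 8.11, *1rt93d06_d_b03* at 6.57, *tcaa0001.j.19* at 8.84 and *tcad0009.a.22* at 7.21, each below all other Ctrl arrays. Without Ctrl replicate 4 the rule gave 115 clones, 109 of them among the 131.

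The other 8 were spread over arrays. *tcbk0040.p.09* stood at 8.20 on Fsh replicate 2, above the other Fsh arrays. *1rt121g11_a_d06* stood at 7.39 on Fsh replicate 6, below the others. *tcbk0024.h.21* stood at 10.9 on Fsh replicate 4 with the next Fsh array at 8.91, and its rise with Fsh rests in large part on that array. *tcbk0018.m.13* stood at 6.81 on Tri replicate 5 and *tcbk0005.f.15* at 7.74 on Tri replicate 4, both above the other Tri arrays. These clones and *tcba0011.f.15* are among the 35 that were high on T0 replicate 1 only. *tcad0007.d.07* stood at 6.07 on Tri replicate 2, above the others, *tcac0002.o.13* at 7.41 on Tri replicate 1 and *tcba0011.f.15* at 6.07 on Tri replicate 4, both below the others.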

How the results depend on the processing

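The rule gave 115 to 179 clones when 1 Ctrl or T0 array was left out, 173 without T0 replicate 2 and 179 without T0 replicate 3, and 49 with a limit of -1.5. Medians over arrays in place of means gave 99 clones, 87 of them shared. Leaving out each array in turn, the median of Fsh minus T0 ran from -1.46 to -1.11, that of Tri minus T0 from -1.37 to -1.12 and that of Fsh+Tri minus T0 from -1.47 to -1.14. The medians against Ctrl ran from 0.01 to 0.10 for Fsh, 0.06 to 0.11 for Tri and 0.03 to 0.08 for Fsh+Tri. On stage I-II arrays alone, where T0 is 1 array, the medians against T0 were -1.03 (Fsh) and -1.02 (Fsh+Tri). With the older image software alone, an alternative chosen after seeing the data, Fsh minus T0 was -1.09. In the 52 clones high in each T0 array, also chosen after seeing the data, Tri minus T0 was -1.45.

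For Fsh minus Tri, leaving out 1 array gave 1 to 6 clones higher and 1 to 6 lower. With no filter on the mean 3 were higher, and with array weights 5 were lower and with the 18 arrays alone 6. The replicate block gave 2 clones higher, the calls of *1rt36k13_a_f07*, *1rt65g08_c_d04*, *tcad0008.o.20* and *tcay0011.l.24* being lost (adjusted p of 0.0539 to 0.0831). Same-numbered arrays did not deviate together (mean r = -0.05 over 36 pairs, and 1 of 24 arrays matched its own number best), so the numbers were taken not to pair the wells. For Fsh+Tri minus Tri, the 18 arrays alone gave 2 clones lower, array weights 1, and leaving out 1 array 0 to 2. For Fsh+Tri minus Fsh, the 18 arrays gave 2 higher and 2 lower, array weights 1 higher, and leaving out 1 array 0 to 2 higher and 0 lower. The stage term gave 0 either way throughout. The causes were not tested. Of 856 alternatives for single clones 52 lost a call, 8 gained a call and 0 changed direction. The clones were picked for their differences on these arrays, and many alternatives change only the spread. Nothing is read from the kept direction. Values from raw spot intensities were not run, since spots are named by membrane position alone.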
